A study of Mus musculus with 9 samples.

Results

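The genes described here are 10 genes of the osteoclast programme and its NFAT transcription factors, chosen by symbol from a table of 55401 genes: Nfatc1, Nfatc2 and Mitf, the receptors Tnfrsf11a and Oscar, the fusion genes Dcstamp, Ocstamp and Atp6v0d2, and the degradation genes Acp5 and Ctsk. RNA sequencing was performed on RAW264.7 cells, a mouse macrophage line from a male animal with a tumour caused by Abelson murine leukemia virus, labelled WT. Cells received the solvent DMSO (the DMSO group), lipopolysaccharide, a bacterial cell wall component, with DMSO (labelled DMSO+LPS, the LPS group), or LPS with the methylindole skatole (labelled LPS+Skatole, the LPS + Ska group), each for 24 h by the labels, while the study's methods section gives a longer time. Each group had 3 columns of values, numbered 5, 6 and 7, and the labels name no added osteoclast-inducing ligand. A single tumour-derived line stood for macrophages here, and nothing in the labels says that the columns came from separate cultures, so p-values cover only the spread between columns.

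Osteoclasts are bone-resorbing cells that form when macrophage-lineage precursors fuse. The ligand RANKL, encoded by Tnfsf11, binds its receptor RANK, encoded by Tnfrsf11a, while calcium signals from immunoreceptors such as OSCAR activate the phosphatase calcineurin, which sends NFATc1 to the nucleus. NFATc1, with MITF, PU.1 and AP-1, then drives the genes for fusion, acid secretion and matrix breakdown, and RAW264.7 cells are widely used as precursors because they can be turned into osteoclasts with RANKL.

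Values were in TPM, a share of all transcripts on a common total, which are scaled for transcript length and keep no read depth, so the depth behind each value is unknown. In the LPS and the LPS + Ska groups, column 5 equalled the mean of columns 6 and 7 for every gene above 0 in all 3 columns (17950 and 17658 genes), with a largest gap of 5e-06 TPM. These groups therefore held at most 2 independent values per gene. The 2 recovered values below lie 0.5 times the difference between columns 5 and 6 on either side of column 5. No source states this factor of 0.5, and columns 6 and 7 stand further apart than the recovered values. For these genes an SD over the 3 columns equals the difference between the 2 recovered values. Group differences were tested with limma on log2(TPM + 1) over the 12819 genes with a mean of at least 1 TPM. A call needed an adjusted p under 0.05 together with a fold over 1.5 or under 0.67. Because 1 TPM is added, folds of genes near 1 TPM come out too small. Refitted on the recovered values, every call among the 10 genes was as given below. Fewer cells of a type and less RNA per cell cannot be told apart in bulk samples.

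LPS raised 4 of the 9 genes that passed the filter and lowered 2, skatole added to LPS lowered 3 and raised none, and 5 genes still differed from DMSO in the LPS + Ska group. The genes raised by LPS were Nfatc1, Atp6v0d2, Acp5 and Ctsk, and the genes lowered were Nfatc2 and Ocstamp. Over all genes tested, 12.7% were called higher and 20.0% lower with LPS. Nfatc1, Atp6v0d2 and Nfatc2 were the genes with lower levels after LPS + Ska than after LPS, where 3.35% of all genes were called higher and 6.14% lower. Acp5, Atp6v0d2 and Ctsk were higher and Nfatc2 and Ocstamp lower in LPS + Ska than in DMSO, beside 11.4% of all genes called higher and 25.3% lower. Oscar did not reach a mean of 1 TPM and was not tested. Ctsk reached it only through its levels in the LPS-treated groups, so its calls against DMSO, counted above, are a description.

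**Figure D1:**
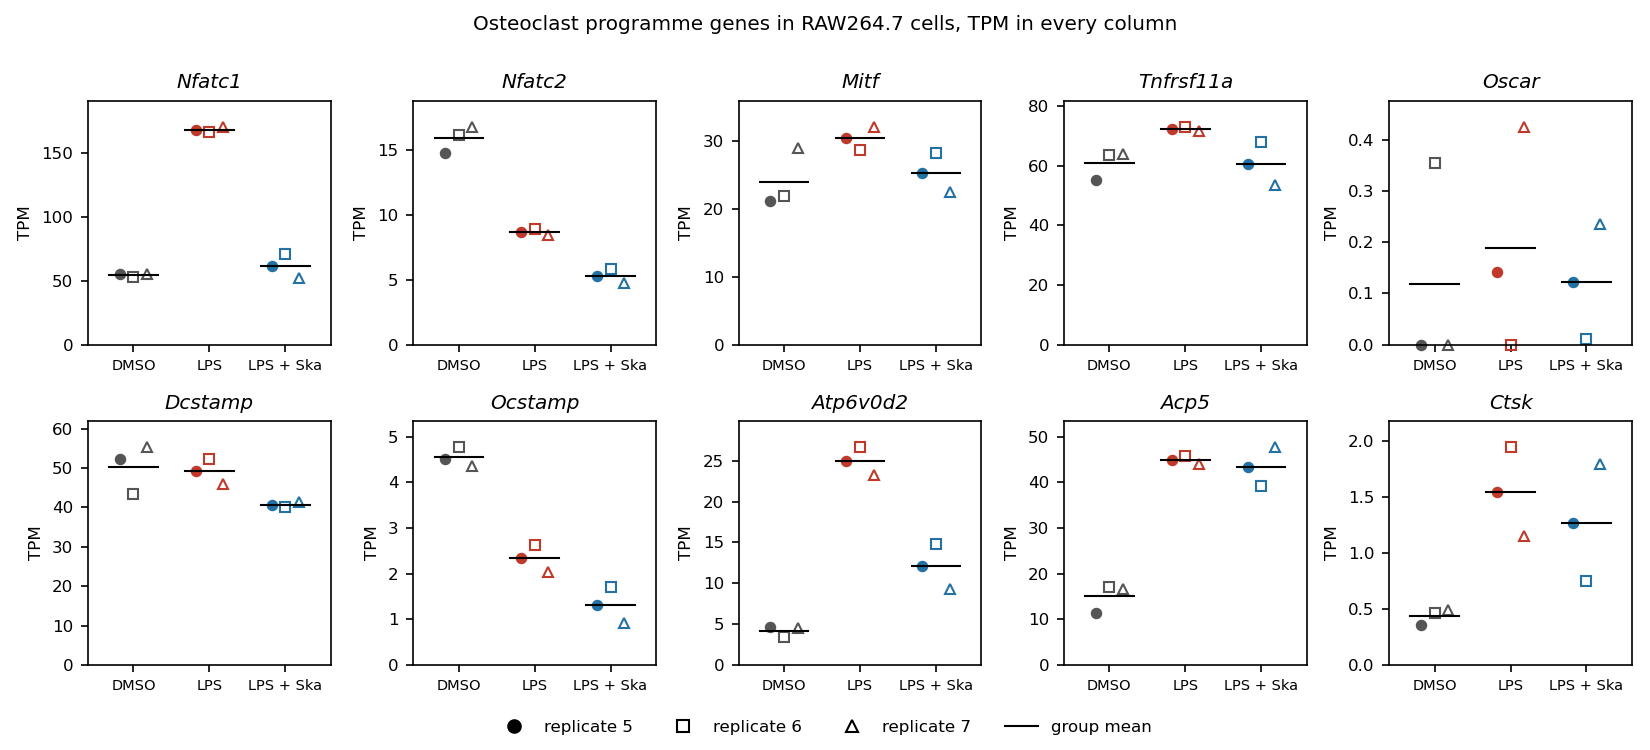
TPM of each of the 10 genes in every column, with 1 panel per gene and its own linear axis from 0. Points are columns 5, 6 and 7 of the DMSO, LPS and LPS + Ska groups and lines are group means. Nfatc1 stands near 54.4 TPM in DMSO, 168 in LPS and 61.4 in LPS + Ska, while Acp5 stays near 44 TPM in both LPS-treated groups.

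Nfatc1 encodes the master transcription factor of osteoclast differentiation (GRCm38, chr18:80606205-80713071, minus strand, a protein-coding gene with identifier ENSMUSG00000033016). Its level was 54.9, 52.9 and 55.3 TPM in the DMSO columns, 168, 166 and 169.8 TPM in the LPS columns, and 61.4, 70.7 and 52.0 TPM in the LPS + Ska columns. All LPS columns lay above all others. The tied LPS + Ska columns spread around the DMSO ones, with column 7 below and columns 5 and 6 above them. The 2 values recovered from them, 66.0 and 56.7 TPM, both lay above the DMSO columns. Nfatc1 rose with LPS by 1.61 on the log2 scale (SE 0.095, adjusted p = 1.16e-06, 3.05-fold), and LPS + Ska was lower than LPS by a log2 change of -1.45 (SE 0.095, adjusted p = 2.38e-05). On the recovered values these 2 comparisons had adjusted p-values of 2.78e-06 and 0.00012. Between LPS + Ska and DMSO the log2 difference was 0.16, with a 95% interval from -0.05 to 0.37 (adjusted p = 0.16). This value depended on the scaling and on which tied columns entered. It was 0.35 after median-ratio scaling (adjusted p = 0.0040), 0.27 without column 7 of LPS + Ska (0.0064) and 0.06 without column 6 of LPS + Ska (0.53), always inside the fold limit. These columns are tied, so leaving out 1 of them does not remove a separate sample.

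Nfatc2 encodes a related NFAT factor that resides in resting immune cells (chr2:168476410-168601657, minus strand). It went in the opposite direction to Nfatc1 under LPS. Its TPM was 14.8, 16.2 and 16.8 with DMSO, 8.68, 8.89 and 8.47 with LPS, and 5.28, 5.81 and 4.76 with LPS + Ska. The 3 groups did not overlap and stood in that order. LPS lowered it by a log2 change of -0.81 (SE 0.095, adjusted p = 8.02e-05), and LPS + Ska stood below LPS by -0.63 (SE 0.095, adjusted p = 0.0017). That second call was lost, with the fold inside the limit, after median-ratio scaling (-0.54), without column 7 of LPS + Ska (-0.57) and with the trend on transcript length removed (-0.50). LPS + Ska compared with DMSO gave a log2 change of -1.43 (adjusted p = 2.03e-06).

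Mitf encodes a helix-loop-helix factor that works with PU.1 at osteoclast genes (chr6:97807052-98021349, plus strand). Its columns read 21.1, 22.0 and 29.1 TPM in DMSO, 30.4, 28.8 and 32.1 TPM in LPS, and 25.4, 28.3 and 22.5 TPM in LPS + Ska. Column 7 of DMSO stood above the lowest LPS column but below both recovered LPS values (29.6 and 31.3 TPM). The LPS + Ska columns lay within the DMSO range and below LPS. No comparison was called for Mitf: the log2 difference was 0.34 for LPS (adjusted p = 0.041, inside the fold limit) and -0.26 for LPS + Ska against LPS (95% interval -0.54 to 0.03, adjusted p = 0.16). On the recovered values the former adjusted p was 0.063.

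Among the receptors, Tnfrsf11a, the gene of RANK (chr1:105780718-105847981, plus strand), was one of the most abundant of the 10 genes in every group. It measured 55.4, 63.7 and 64.1 TPM in DMSO, 72.3, 73.0 and 71.6 TPM in LPS, and 60.8, 67.9 and 53.6 TPM in LPS + Ska. The LPS columns lay above all columns of the other groups, which overlapped each other. The log2 difference with LPS was 0.24 (95% interval 0.04 to 0.45, adjusted p = 0.041) and stayed inside the fold limit. The LPS + Ska difference from LPS was -0.25 (adjusted p = 0.062) and from DMSO -0.01, with a 95% interval from -0.21 to 0.19.

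Oscar, which encodes a costimulatory immunoreceptor for calcium signalling (chr7:3609813-3616157, minus strand), was listed at 0 in columns 5 and 7 of DMSO and at 0.355 TPM in column 6. The LPS columns held 0.142, 0 and 0.425 TPM and the LPS + Ska columns 0.123, 0.0101 and 0.236 TPM. The groups overlapped, and no value reached 0.5 TPM. Fitted without the filter on low values, Oscar gave no call in any comparison, with log2 differences of 0.09, -0.07 and 0.02 for LPS against DMSO, LPS + Ska against LPS and LPS + Ska against DMSO.

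Of the fusion genes, LPS lowered Ocstamp, raised Atp6v0d2 and gave no call for Dcstamp. Dcstamp, whose membrane protein is required for osteoclast precursors to fuse (chr15:39745930-39760938, plus strand), was at 52.4, 43.3 and 55.2 TPM in DMSO, 49.1, 52.4 and 45.9 TPM in LPS, and 40.7, 40.0 and 41.4 TPM in LPS + Ska. DMSO and LPS overlapped fully, and the LPS + Ska columns lay just below both. No comparison was called. The LPS difference was -0.03 on the log2 scale (95% interval -0.24 to 0.18), and its sign turned under median-ratio scaling. LPS + Ska differed from LPS by -0.26 (adjusted p = 0.059) and from DMSO by -0.29 (adjusted p = 0.020, inside the fold limit), which was -0.10 after median-ratio scaling (adjusted p = 0.37). The difference from LPS was -0.16 after that scaling.

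Ocstamp encodes a second membrane protein of fusion (chr2:165393760-165400405, minus strand) and was expressed at a low level. Its columns held 4.51, 4.76 and 4.36 TPM in DMSO, 2.33, 2.63 and 2.03 TPM in LPS, and 1.32, 1.71 and 0.927 TPM in LPS + Ska. The groups stood apart in that order, as for Nfatc2. LPS lowered Ocstamp by a log2 change of -0.74 (SE 0.15, adjusted p = 0.0024). LPS + Ska was lower than DMSO by -1.27 (adjusted p = 7.9e-05). Against LPS the value was -0.53 (adjusted p = 0.030, inside the fold limit). It would have been called with a pseudocount of 0.1 (-0.81), without column 7 of LPS (-0.60) or without column 6 of LPS + Ska (-0.65), and its adjusted p was 0.070 with the recovered values.

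Atp6v0d2 encodes the d2 subunit of the V-ATPase proton pump, which serves acid secretion and cell fusion in osteoclasts (chr4:19876841-19922605, minus strand). It had the largest LPS change of the 9 genes tested. The columns were at 4.63, 3.36 and 4.52 TPM in DMSO, 25.0, 26.6 and 23.3 TPM in LPS, and 12.1, 14.8 and 9.33 TPM in LPS + Ska. No groups overlapped, and LPS + Ska lay between the other two. The LPS rise was 2.34 on the log2 scale (SE 0.16, adjusted p = 3.03e-06, 5.05-fold). LPS + Ska was lower than LPS by -1.01 (SE 0.16, adjusted p = 0.0022) and higher than DMSO by 1.33 (adjusted p = 8.29e-05).

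The degradation genes rose with LPS and were not called in LPS + Ska against LPS. Acp5 encodes tartrate-resistant acid phosphatase, the classical osteoclast stain (chr9:22126727-22135711, minus strand). It was at 11.4, 17.0 and 16.6 TPM in DMSO, 44.8, 45.7 and 44.0 TPM in LPS, and 43.5, 39.3 and 47.7 TPM in LPS + Ska. DMSO lay apart, and the LPS columns fell within the LPS + Ska range. LPS raised Acp5 by 1.54 on the log2 scale (SE 0.14, adjusted p = 1.41e-05, 2.90-fold). LPS + Ska was above DMSO by 1.49 (adjusted p = 1.34e-05), and its difference from LPS was -0.05, with a 95% interval from -0.35 to 0.26 (adjusted p = 0.81).

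Ctsk encodes cathepsin K, the collagen-degrading protease of osteoclasts (chr3:95499256-95509362, plus strand), and stayed below 2 TPM in every column. It was at 0.354, 0.465 and 0.490 TPM in DMSO, 1.55, 1.94 and 1.15 TPM in LPS, and 1.27, 0.744 and 1.79 TPM in LPS + Ska. Both LPS-treated groups lay above DMSO and overlapped each other. Ctsk passed the filter only through the LPS-treated groups, so its rises over DMSO are a description. They were 0.82 on the log2 scale with LPS (SE 0.21) and 0.63 with LPS + Ska (SE 0.21). The call of LPS + Ska against DMSO was lost without column 5 of DMSO (adjusted p = 0.052), without column 5 of LPS + Ska (0.072) and without column 7 of LPS + Ska (0.082). LPS + Ska against LPS gave -0.18 (95% interval -0.65 to 0.28).

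**Figure D2:**
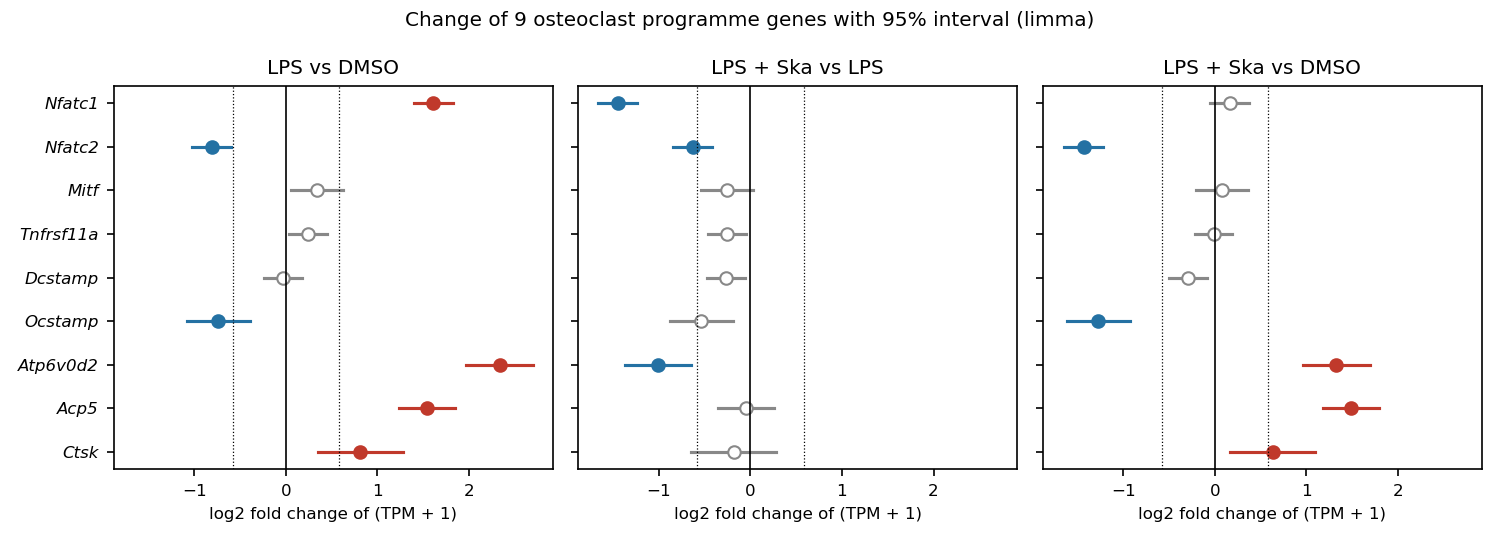
Log2 fold change of (TPM + 1) with its 95% interval from limma for the 9 genes tested, 1 panel per comparison. Filled points are called, open points are not, solid lines mark 0 and dotted lines the fold limits of 1.5 and 0.67. All 9 points of LPS + Ska against LPS lie below 0, from -0.05 for Acp5 to -1.45 for Nfatc1.

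In LPS + Ska against LPS the 9 log2 differences had a median of -0.26, beside a median of -0.10 over all genes tested, which moved to -0.0016 after scaling each column by its median ratio. After that scaling 8 of the 9 remained below 0 and 2, Nfatc1 and Atp6v0d2, were called lower. The change also moved with transcript length over the 12805 genes with an annotated length: when these genes were split by length into 4 equal classes, the class with the longest transcripts had a median log2 difference of -0.19 and that with the shortest -0.01. The longest Nfatc1 transcript, of 4797 nucleotides, exceeds 80.1% of tested genes, that of Nfatc2, of 6828 nucleotides, 92.5%, that of Atp6v0d2, of 2539 nucleotides, 42.7%, and that of Acp5, of 1447 nucleotides, 22.6%. With the length trend removed, Nfatc1 was still called (-1.40, adjusted p = 8.52e-06) and so was Atp6v0d2 (-1.03, adjusted p = 0.0020). In the LPS + Ska group 6 of the 10 genes were higher in column 6 than in column 7, among them all 3 transcription factors, while Dcstamp, Acp5, Ctsk and Oscar were lower. The part of these column differences in the results was not tested.

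Promoter windows were read for the 6 of the 10 genes with an entry in the RefSeq table (GRCm38.p6), as 250 bases before each annotated start, 11 windows in all. They were searched on both strands for the NFAT core GGAAA, the E-box letters CACGTG or CATGTG, the AP-1 letters TGANTCA and the PU.1 core GAGGAA. The 3 windows below are shown for a gene that fell in both LPS-treated groups (Nfatc2), and for the degradation genes, which rose with LPS (Acp5 and Ctsk). Capitals mark matches to these letters on either strand, so that TTTCC is the NFAT core, TTCCTC the PU.1 core and CACATG the E-box read from the other strand, and the run GAGGAAA in Nfatc2 holds the PU.1 and NFAT cores overlapping.
Nfatc2 (chr2:168601658-168601907, minus strand): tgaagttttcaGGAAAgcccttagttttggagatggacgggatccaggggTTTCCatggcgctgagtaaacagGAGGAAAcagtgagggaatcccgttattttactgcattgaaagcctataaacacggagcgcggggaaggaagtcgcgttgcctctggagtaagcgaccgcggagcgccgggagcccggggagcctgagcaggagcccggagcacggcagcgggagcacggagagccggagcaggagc
Acp5 (chr9:22130599-22130848, minus strand): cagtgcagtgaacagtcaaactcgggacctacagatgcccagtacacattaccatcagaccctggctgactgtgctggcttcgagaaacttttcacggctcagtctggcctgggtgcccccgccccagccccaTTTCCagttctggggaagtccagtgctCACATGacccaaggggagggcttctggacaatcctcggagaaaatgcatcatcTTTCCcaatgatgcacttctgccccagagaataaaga
Ctsk (chr3:95498960-95499209, plus strand): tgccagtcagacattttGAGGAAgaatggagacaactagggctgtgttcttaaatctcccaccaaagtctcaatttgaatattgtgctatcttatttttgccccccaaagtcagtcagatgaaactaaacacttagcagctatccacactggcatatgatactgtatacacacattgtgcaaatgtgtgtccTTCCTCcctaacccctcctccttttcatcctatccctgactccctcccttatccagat
The Nfatc2 window held 3 NFAT cores, with first bases 239, 200 and 175 bases before the start, and a PU.1 core at 177. The Acp5 window held NFAT cores at 117 and 37 and an E-box at 90. The Ctsk window held PU.1 cores at 233 and 58 and no NFAT core. For Nfatc2 and Acp5 the window with the most matches was shown, chosen after the search. The other Nfatc2 window and both other Acp5 windows held 1 NFAT core each and none of the other motifs.

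Over the 11 windows, 8 held the NFAT core (72.7%), against 55.6% of 32851 mouse windows of the same length, so these 5 letters are in most promoters. The E-box letters stood in 2 of 11, beside 17.6% of all windows, the PU.1 core in 3 of 11, beside 23.3%, and the AP-1 letters in none, beside 6.75%. The remaining E-box was in Oscar, 6 bases before its start. The Tnfrsf11a window held none of the 4 motifs. A match describes letters in a window, not a site in use.

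Ordered by TPM, the DMSO cells had Tnfrsf11a first at 61.1 ± 4.90 (SD, n = 3), then Nfatc1 at 54.4 ± 1.27, Dcstamp at 50.3 ± 6.25, Mitf at 24.1 ± 4.36, Nfatc2 at 15.9 ± 1.00, Acp5 at 15.0 ± 3.11, Ocstamp at 4.54 ± 0.205, Atp6v0d2 at 4.17 ± 0.702, Ctsk at 0.436 ± 0.0724 and Oscar at 0.119. The columns of Nfatc1 and Dcstamp overlapped, as did those of Nfatc2 and Acp5, of Ocstamp and Atp6v0d2, and of Ctsk and Oscar. In LPS the order was Nfatc1 (168 ± 1.94), Tnfrsf11a (72.3 ± 0.687), Dcstamp (49.1 ± 3.26), Acp5 (44.8 ± 0.842), Mitf (30.4 ± 1.67), Atp6v0d2 (25.0 ± 1.69), Nfatc2 (8.68 ± 0.209), Ocstamp (2.33 ± 0.299), Ctsk (1.55 ± 0.395) and Oscar. The ranges of neighbours did not overlap there, and Nfatc1 stood 922nd among all genes, against 3245th in DMSO. In LPS + Ska, Nfatc1 (61.4 ± 9.34) and Tnfrsf11a (60.8 ± 7.15) overlapped at the top, as did Acp5 (43.5 ± 4.20) and Dcstamp (40.7 ± 0.715), and Ocstamp (1.32 ± 0.391) and Ctsk (1.27 ± 0.522) near the bottom. On the recovered values Acp5 (41.4 and 45.6 TPM) lay above Dcstamp (40.4 and 41.1 TPM) without overlap. Mitf (25.4 ± 2.89), Atp6v0d2 (12.1 ± 2.75) and Nfatc2 (5.28 ± 0.521) lay apart between the upper and the lower pairs.

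Ratios within a column do not depend on how that column was scaled. The Nfatc1 to Acp5 ratio was 4.80, 3.12 and 3.33 in DMSO, 3.74, 3.63 and 3.86 in LPS, and 1.41, 1.80 and 1.09 in LPS + Ska. DMSO and LPS overlapped, and LPS + Ska lay below both. The Nfatc1 to Nfatc2 ratio was 3.70, 3.27 and 3.29 in DMSO, 19.3, 18.7 and 20.04 in LPS, and 11.6, 12.2 and 10.9 in LPS + Ska. Here LPS + Ska lay between DMSO and LPS, and no groups overlapped. Nfatc1 made up 48.2% ± 1.31 of the summed TPM of Nfatc1 to Nfatc4 in DMSO, 72.5% ± 0.601 in LPS and 56.9% ± 0.723 in LPS + Ska. Family sums were 107 to 118 TPM, 231 to 232 TPM and 90.3 to 126 TPM. For the d subunits of the V-ATPase, Atp6v0d2 gave 2.72% ± 0.364 of the sum of Atp6v0d1 and Atp6v0d2 in DMSO, 13.4% ± 0.604 in LPS and 6.21% ± 1.32 in LPS + Ska.

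**Figure D3:**
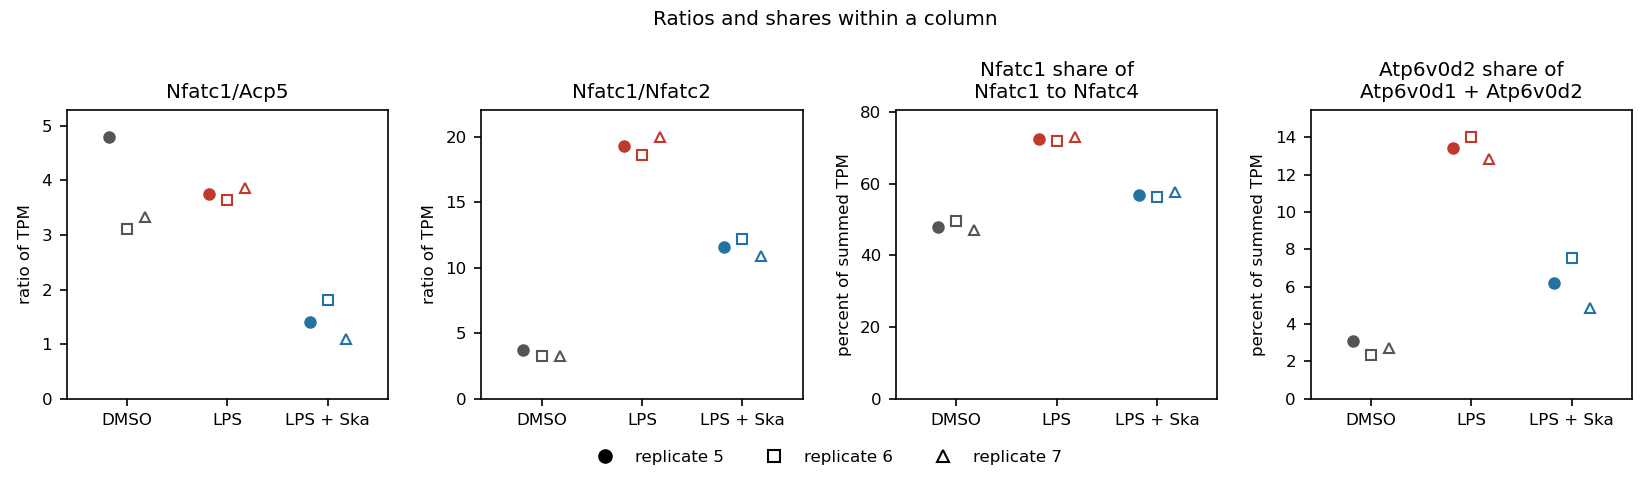
Ratios of TPM (left pair of panels) and percent of a family's summed TPM (right pair) in each column, with points for columns 5, 6 and 7 of each group on linear axes from 0. The Nfatc1 to Acp5 ratio lies between 1.09 and 1.80 in LPS + Ska and above 3 elsewhere, while the Nfatc1 share of its family is highest in LPS.

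By Pearson correlation of log2(TPM + 1) over the 9 columns, the genes most like Nfatc1 were Rnf213 (r = 0.998), Mir5618 (0.997), Cdk6 (0.996), Zfhx4 (0.994) and Rexo5 (0.994). These columns share libraries, tied values and group structure, so r is a description. Rnf213, an interferon-inducible ubiquitin ligase, was at 19.4, 65.04 and 23.8 TPM on average in DMSO, LPS and LPS + Ska, and Cdk6, a cell cycle kinase, at 34.1, 64.4 and 35.8 TPM. Mir5618 lies near 3 TPM in LPS and near 0 elsewhere. It passed the filter only through the LPS group, so a pattern high in LPS alone was built in. The longest transcripts of Rnf213, Cdk6 and Zfhx4 exceed 99.9%, 99.1% and 99.6% of tested genes. That of Rexo5 exceeds 41.8%, and that of Mir5618, of 51 nucleotides, 0.02%. Within the programme, r with Nfatc1 was 0.87 for Atp6v0d2, 0.83 for Tnfrsf11a, 0.76 for Mitf, 0.58 for Ctsk, 0.57 for Acp5, 0.27 for Dcstamp, and -0.15 for Nfatc2 and Ocstamp alike.

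The ligand side of the pathway was nearly silent in these cells. Tnfsf11 and Tnfrsf11b, the genes of RANKL and its decoy receptor osteoprotegerin, were listed at 0 in all 9 columns. Csf1 reached at most 0.373 TPM and Il34, the other ligand of the CSF1 receptor, at most 0.506 TPM. The counts of each list below stand beside 12.7% of all genes called higher and 20.0% lower with LPS, and were not tested against these shares. Of the receptors and adaptors, 16 of 17 were tested, and LPS raised 1 and lowered 6. Among those lowered, Pirb was at 7.21, 0.818 and 1.00 TPM in DMSO, LPS and LPS + Ska. It passed the filter only through the DMSO group, so its fall is a description. Csf1r, the receptor for CSF1, fell from 835 to 522 TPM with LPS (log2 change -0.68, adjusted p = 2.03e-05), and LPS + Ska held 467 TPM (-0.16 against LPS, adjusted p = 0.090). In LPS + Ska against LPS, Trem2, a lipid-sensing immunoreceptor of macrophages and osteoclasts, was higher by 1.43 (36.2 to 99.5 TPM, adjusted p = 0.00065), which left it below the DMSO mean of 324 TPM. Tec, a kinase downstream of such receptors, was lower by -0.65 (22.5 to 14.0 TPM, adjusted p = 0.00062) and no longer called after median-ratio scaling. The median of this list was -0.16 with LPS and -0.20 in LPS + Ska against LPS, beside -0.07 and -0.10 over all genes.

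Of 22 genes of NFAT and calcineurin signalling other than Nfatc1 and Nfatc2, 19 were tested, 3 rose and 3 fell with LPS, and 4 were lower and none higher in LPS + Ska than in LPS, where 6.14% of all genes were lower and 3.35% higher. Nfat5, the osmotic stress NFAT factor, rose from 83.3 to 172 TPM with LPS (1.04, adjusted p = 0.00014) and was at 109 TPM in LPS + Ska (-0.68, adjusted p = 0.0061). Itpr1, a calcium release channel of the endoplasmic reticulum, rose from 5.95 to 11.9 TPM and was at 5.92 TPM in LPS + Ska (-0.92, adjusted p = 0.0016). The calcineurin catalytic subunit gene Ppp3ca was lower by -0.60 (25.03 to 16.2 TPM) and the calcineurin inhibitor gene Cabin1 by -0.69 (20.5 to 12.4 TPM). Only Itpr1 kept its call both after median-ratio scaling and with the length trend removed, where the counts of genes called lower were 2 and 1. Without column 7 of LPS + Ska the calls of Nfat5 (-0.51) and Cabin1 (-0.56) were lost. Nfatc3 was at 42.7, 54.9 and 41.2 TPM in DMSO, LPS and LPS + Ska, with both LPS differences inside the fold limit (0.36 and -0.42). The list median was 0.01 with LPS and -0.26 in LPS + Ska against LPS.

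Of 14 partner transcription factors tested, 3 rose and 5 fell with LPS, and 4 rose and 5 fell after median-ratio scaling. Spi1, the gene of PU.1, went from 408 to 233 TPM (-0.81, adjusted p = 6.75e-06) and Fos from 230.5 to 48.5 TPM (-2.23, adjusted p = 2.61e-06). In LPS + Ska they stood at 230.2 and 42.0 TPM, with log2 differences from LPS of -0.02 and -0.22 that were not called. The AP-1 genes Fosl1 (-1.01, adjusted p = 0.035), Fosl2 (-0.76, adjusted p = 0.00091) and Junb (-0.75, adjusted p = 0.0012) had lower levels with LPS + Ska than with LPS alone. The Fosl1 call was lost without any 1 of the LPS columns (adjusted p 0.062 to 0.10) or column 5 of LPS + Ska (0.077), after median-ratio scaling (0.065) and with the replicate block (0.055). The list median was -0.20 with LPS and -0.34 in LPS + Ska against LPS.

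Of 8 repressors of osteoclast formation, LPS lowered 3 and raised none, beside 20.0% of all genes lowered and 12.7% raised. Irf8 fell from 46.3 to 19.7 TPM with LPS (-1.20, adjusted p = 4.31e-05) and was at 18.6 TPM in LPS + Ska (-0.08 against LPS). Id2, an inhibitor of helix-loop-helix factors, was lower in LPS + Ska than in LPS by -0.92 (71.1 to 37.4 TPM, adjusted p = 0.0018). Tnfaip3, the NFκB inhibitor A20, was lower by -0.79 (12.7 to 6.86 TPM, adjusted p = 0.035), and this call was lost without any 1 column of either group (adjusted p 0.052 to 0.11) and with the recovered values (0.10). The list medians were -0.11 and -0.19.

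Fusion genes other than those above fell or were not called with LPS, with 5 of 10 lower, none higher and a list median of -0.66, beside 20.0% of all genes lower and 12.7% higher. Among those lower, Siglec15 was at 2.68, 0.957 and 0.358 TPM in DMSO, LPS and LPS + Ska. It passed the filter only through the DMSO group, so its fall is a description. Trem2, which stands on this list as well, was the one called in LPS + Ska against LPS. Among 16 tested genes of resorption, LPS raised 3 and lowered 6. Among those raised, Src was at 0.105, 1.85 and 1.18 TPM in DMSO, LPS and LPS + Ska. It passed the filter only through the LPS-treated groups, so its rise is a description. Mmp9, a matrix metalloproteinase of osteoclasts and activated macrophages, was at 0.188 TPM in DMSO and 16.7 TPM in LPS (3.90), and passed the filter only through the LPS-treated groups, so its rise is a description. It was at 8.88 TPM in LPS + Ska (-0.84, adjusted p = 0.0010). The Mmp9 difference between LPS + Ska and LPS was not called with a pseudocount of 0.1 (adjusted p = 0.074). Ctsl, a lysosomal cathepsin, was higher in LPS + Ska than in LPS by 0.80 (184 to 320.4 TPM, adjusted p = 0.0011). Car2, carbonic anhydrase II, which supplies protons for bone acidification and was singled out after its values were seen, rose from 127 to 1509 TPM with LPS (3.57) and was at 1152 TPM in LPS + Ska (-0.39, inside the fold limit). None of the 16 other V-ATPase genes was called in LPS + Ska against LPS, where their median was 0.0060 and 3.35% of all genes were called higher and 6.14% lower. LPS raised 3 and lowered 3 of them, against 12.7% and 20.0% of all genes, and these counts do not set the list apart. Atp6v0d1, the other d subunit, was at 148, 161 and 182 TPM in DMSO, LPS and LPS + Ska.

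**Figure D4:**
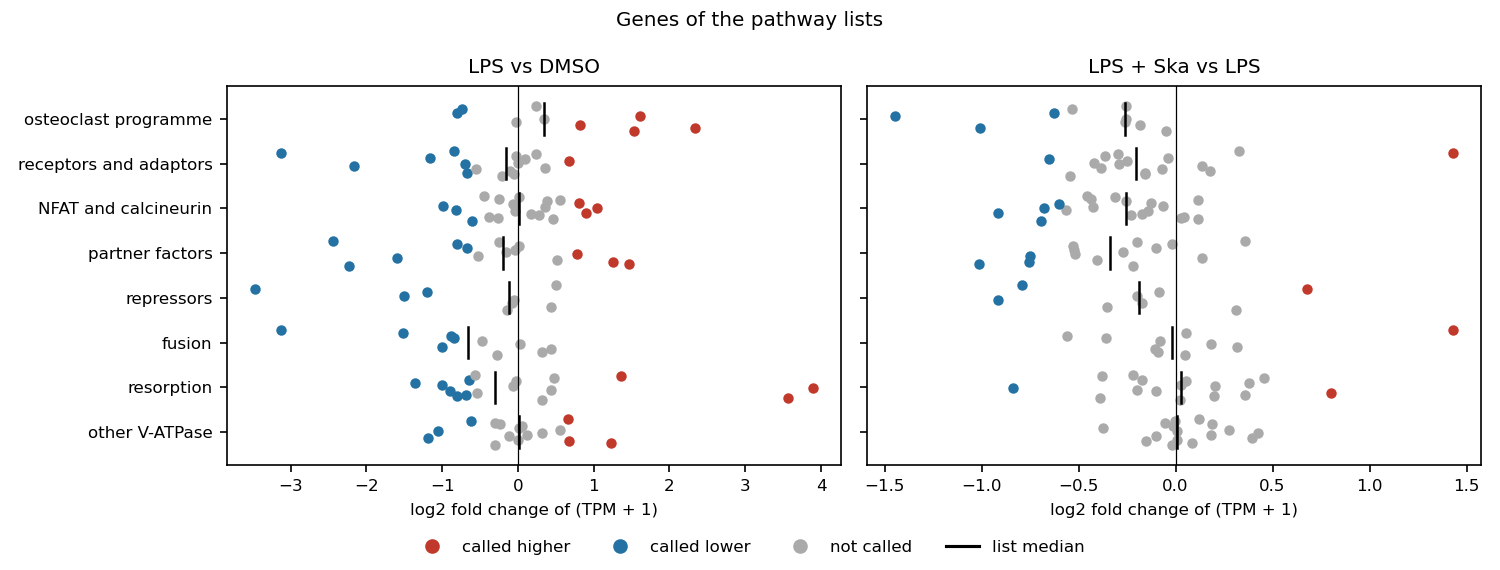
Log2 fold change of (TPM + 1) for the tested genes of each list, with LPS against DMSO on the left and LPS + Ska against LPS on the right. Each point is a gene, coloured by its call, and a vertical bar marks the list median. The right panel shows 4 called genes of NFAT and calcineurin signalling, all below 0, and no called gene among the other V-ATPase genes.

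The label of an osteoclast programme was checked against the cells. Of an LPS response list, Acod1, Cxcl10, Ptgs2 and Tnf, at 6.41 to 69.6 TPM in DMSO, were called higher with LPS. Nos2 and Il1b, at 0 and 0.155 TPM in DMSO, passed the filter only through the LPS-treated groups and so had to differ. Il6, at 0 TPM in DMSO, 4.35 in LPS and 0.259 in LPS + Ska, passed it only through the LPS group. Cxcl10 and Il1b were called lower after skatole was added, and so was Il6, whose call is a description because of that filter. All 8 macrophage markers had a mean of at least 1 TPM, and their summed level was 12397 to 13368 TPM in DMSO, 7341 to 7739 TPM in LPS and 13668 to 13927 TPM in LPS + Ska, most of it Lyz2. In LPS + Ska against LPS, Lyz2 was the one marker called (higher by 1.19), and 4 of the 8 log2 differences were above 0 and 4 below, with a median of 0.07. Of 8 osteoblast and stromal markers 1, Alpl, reached 1 TPM, with sums of 5.47 to 8.02, 2.95 to 3.61 and 4.02 to 4.13 TPM in DMSO, LPS and LPS + Ska. Of 5 T cell markers 1, Lck, reached it, with sums of 1.36 to 2.16, 4.45 to 4.82 and 2.55 to 3.15 TPM. The part of these marker levels in the results was not tested. Calcr, the calcitonin receptor of mature osteoclasts, was listed at 0 in all 9 columns and Itgb3, their integrin β3, did not exceed 0.0449 TPM, both singled out after their values were seen. Ctsk and Oscar were below 2 TPM in every column. Acp5, Atp6v0d2 and Car2, which osteoclasts also express, were called higher with LPS. Acp5 and Atp6v0d2 belong to the genes under check, and Car2 was singled out after its values were seen. Ctsk and Mmp9 were also called higher with LPS. Both passed the filter only through the LPS-treated groups, so their calls are a description. These calls therefore cannot decide whether the label holds for these cells.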

How the data were processed

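RNA sequencing of RAW264.7 cells gave 9 samples in 3 groups, assigned from the treatment labels. The authors deposited TPM values (transcript shares on a common total, scaled for length) for 55401 Ensembl identifiers, of which 55141 were matched to a symbol. The submitters' processing notes name fastp 0.20.1, HISAT2 2.2.1, StringTie 2.0 and the build mm10, without roles, and no step that would tie columns is given in the sources used here. TPM keep no read depth, so no counting interval was given and no count model was run.

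Genes with a mean of at least 1 TPM over the 9 columns were tested with limma 3.58.1 in R 4.3.3 on log2(TPM + 1) (lmFit, then eBayes with trend = TRUE). All 9 columns entered 1 fit and shared its spread, with Benjamini-Hochberg adjustment over all genes tested. The fold limits of 1.5 and 0.67 are those the study names for its RNA-seq plots. The recovered values are column 5 plus or minus 0.5 times the difference between column 5 and column 6, and leave 2 values in each LPS-treated group. The factor of 0.5 is not stated by any source used here. The script was tested on simulated data.

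The 10 genes and all gene lists were chosen with earlier results of these data known. Text names all 10 genes, the list genes called in LPS + Ska against LPS (at most 4 per list, those with the largest change), Tnfsf11, Csf1r, Irf8, Spi1, Fos, Mmp9 and Nfatc3, and the 5 genes with the highest r with Nfatc1. Outside this rule, Src, Pirb and Siglec15 are named only for how they passed the filter. An item the rule also names is not reported here. Pira1, a list gene, was not analysed here. Positions came from GENCODE M21, promoter windows from RefSeq, and lengths from the longest annotated transcript. The 3 comparisons share groups, so no relation between them was computed.

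Same-numbered columns were checked for pairing by the correlation of their deviations from the group means: it was 0.38, 0.15 and 0.13 between LPS and LPS + Ska, whose columns are tied and so do not give 3 separate observations, and -0.032 to 0.080 between DMSO and the others. The numbers were not taken to pair samples. The alternatives were a pseudocount of 0.1, no filter or a mean of at least 5 TPM, median-ratio scaling, a replicate block, the recovered values, eBayes without its trend, a fit to 2 groups only, the adjusted p alone, leaving out each column, and, chosen after seeing the data, removal by loess of each column's trend on transcript length. In the LPS-treated groups the 3 columns are tied, so a left-out column there is no separate sample. Those fits show dependence on columns, not on replicates. Python 3.11.15 with pandas 2.3.3, numpy 2.4.6 and matplotlib 3.10.9 made tables and figures.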

Additional observations from a re-analysis of the deposited data

How the results depend on the processing

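Of 399 values of the 9 genes under the alternatives other than the adjusted p alone, 379 kept their direction and side of the threshold, 11 turned sign, 3 gained a call and 6 lost one. With a mean of at least 5 TPM, Ocstamp and Ctsk left the test, so that 1 gene, Nfatc2, was called lower in LPS and in LPS + Ska against DMSO. The sign turned for Dcstamp with LPS (0.061 after median-ratio scaling, 0.041 with the length trend removed, and -0.131 to 0.042 leaving out 1 column), for Acp5 in LPS + Ska against LPS (0.052 after median-ratio scaling, and -0.116 to 0.021 leaving out 1 column) and for Tnfrsf11a in LPS + Ska against DMSO (0.18 after median-ratio scaling, and -0.093 to 0.075 leaving out 1 column), none of them called. The cause of these turns was not tested.

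With the replicate block, LPS + Ska had 3 genes lower and none higher than LPS, 4 were higher and 2 lower with LPS, and 3 were higher and 2 lower in LPS + Ska than in DMSO, the counts without it. Median-ratio scaling moved the median of all genes from -0.07 to 0.01 (LPS against DMSO), from -0.10 to -0.0016 (LPS + Ska against LPS) and from -0.18 to -0.0033 (LPS + Ska against DMSO), and the share of calls that were higher from 38.9% to 48.8%, 35.3% to 52.4% and 31.0% to 49.6%. With the adjusted p alone, Mitf and Tnfrsf11a were also called higher with LPS, Ocstamp lower in LPS + Ska against LPS and Dcstamp lower in LPS + Ska against DMSO. Over all 12819 genes tested, 3354 were higher and 4380 lower with LPS and 1139 higher and 2524 lower in LPS + Ska against LPS. In LPS + Ska against DMSO, 2915 were higher and 5201 lower. Tied columns leave 2 independent values in each LPS-treated group, and changes of Ctsk and Oscar rest on levels near or below 1 TPM.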
